A study of Mus musculus with 17 samples.

Results

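Leukemias labelled as myeloid and derived from DN2 cells were set against leukemias labelled as myeloid and derived from LSK cells. Both are labelled as Myc/Bcl2-positive. The aim was to see which genes differ between leukemias whose labels name different mouse progenitors. In 2 of the 3 LSK-labelled arrays the oncogene signals that all the other leukemia arrays show, high Mycn and high Bcl2, were near the level of healthy cells, so the groups differ in these signals as well as in labelled origin. The comparison takes the arrays whose titles name these origins, 5 for DN2 and 3 for LSK, which is 8 of the 17 arrays in the series. The other arrays hold GMP-derived leukemias (5 arrays), healthy DN2 cells (2 arrays) and healthy GMP (2 arrays), where GMP are the granulocyte-macrophage progenitors of the marrow. They enter the fit only to help estimate the spread. DN2 cells are the second of the double negative stages through which T-cell progenitors pass in the thymus, before they carry CD4 or CD8. LSK cells are marrow cells that lack lineage markers and carry Sca1 and c-kit, a population that contains the blood stem cells.

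The DN2 group came from thymus cells and the LSK group from marrow cells of wildtype C57/Bl6 CD45.2 donors, and both are labelled as transformed with Myc/Bcl2 and grown in recipients of 4 to 8 weeks of age after 4.5 to 6 Gy of irradiation. Both groups were labelled as spleen cells of sick recipients, sorted for CD11b and Gr1 and against CD3, CD4 and CD8, which selects neutrophils and monocytes by protein. The sources used here do not give the vector, its promoter, the number of clones in a leukemia or the age of the donors. Nothing in the labels says that the arrays of a group come from separate mice, so each p-value measures only the spread between these samples, which may be technical for part of them. Sex-linked genes, described below, differed between some arrays within each group.

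As background, thymic progenitors at the DN2 stage still keep access to myeloid and natural killer (NK) fates and lose it as transcription factors such as Bcl11b and Gata3 fix the T-cell programme. Granulocytes mature in a set order that C/EBP factors and Spi1 (PU.1) direct: primary granules with myeloperoxidase and serine proteases are filled first, then secondary granules with lactoferrin and cathelicidin, and then tertiary granules with gelatinase. Myc proteins are known to raise the genes of ribosome assembly and nucleotide synthesis, and Bcl2 blocks the mitochondrial path to cell death.

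Values are log2 expression values from the deposited table, 1 probe set per gene, and where a gene has a value per array they run in the order of the replicate numbers. The array medians ran from 3.80 to 3.86, and a value near that level is background, which compresses any difference from a group that lies there. A difference is the mean of the DN2-labelled arrays minus the mean of the LSK-labelled arrays, with the standard error (SE) of a limma fit over all 17 arrays, and genes with an adjusted p under 0.05 were called. Over the genes tested, arrays correlated at 0.940 to 0.984 among the DN2-labelled arrays, and at 0.737 to 0.851 between the groups. LSK-labelled arrays 2 and 3 correlated at 0.982 with each other, and LSK-labelled array 1 at 0.909 and 0.907 with them. These are correlations across genes, which are not independent replicates. In bulk RNA, fewer cells of a type and less RNA per cell cannot be told apart.

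The genes of the sort went against the label of the DN2 arrays. Cd3g, a chain of the CD3 complex that carries the T-cell receptor signal, read 11.06, 11.82, 11.17, 11.96 and 11.32 in DN2-labelled arrays, against 3.33, 3.26 and 4.80 in LSK-labelled arrays. Cd3d, its partner chain, read 12.23, 12.47, 12.17, 12.55 and 12.38 in DN2-labelled arrays, against 6.21, 5.22 and 7.28 in LSK-labelled arrays. Both were high in every DN2-labelled array, did not overlap between the groups, and differed by 7.67 ± 0.31 (adjusted p = 1.18e-10) and by 6.12 ± 0.40 (adjusted p = 2.75e-08). Cd3e, the chain named in most CD3 sorts, was between 7.79 and 9.06 in the DN2-labelled arrays, against 5.34, 5.0 and 5.02 in LSK-labelled arrays 1 to 3, a difference of 3.29 ± 0.21 (adjusted p = 2.10e-08). LSK-labelled array 1 lay with arrays 2 and 3 for all 3 chains. Itgam, which encodes CD11b, read 7.17, 3.47, 7.38, 3.24 and 3.42 in DN2-labelled arrays, against 8.99, 9.54 and 10.03 in LSK-labelled arrays. DN2-labelled arrays 2, 4 and 5 were at background and arrays 1 and 3 were well above it, yet every DN2-labelled array was below every LSK-labelled one, and the gene fell by 4.58 ± 0.91 (adjusted p = 0.000897). Cd4 was near background in all 8 arrays, between 3.45 and 3.63 in the DN2-labelled and between 3.87 and 4.01 in the LSK-labelled arrays, and within that small span it was called lower (−0.40 ± 0.10 (adjusted p = 0.00582)). Cd8a was also close to background, between 3.59 and 4.38 against 3.25 to 3.63, and its difference of 0.53 ± 0.18 (adjusted p = 0.0259) came with arrays that overlapped and did not pass without LSK-labelled array 3 (0.43, adjusted p = 0.117) or DN2-labelled array 2 (0.48, adjusted p = 0.0574) or 3 (0.43, adjusted p = 0.0569). Ptprc, the pan-leukocyte antigen CD45, did not pass the test (difference 0.08 ± 0.21 (adjusted p = 0.782)). The sort was by protein, which the arrays do not measure, and Ly6g, a Gr1 antigen, is not among the probe sets named here.

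The oncogenes set LSK-labelled array 1 apart from arrays 2 and 3. Mycn, a close relative of Myc, read 11.58, 12.10, 11.76, 11.94 and 11.99 in DN2-labelled arrays, against 12.82, 4.91 and 4.22 in LSK-labelled arrays. It was high in all 5 DN2-labelled arrays and highest in LSK-labelled array 1, while LSK-labelled arrays 2 and 3 were near background, so array 1 was on the other side of the DN2-labelled arrays. The call for Mycn, 4.56 ± 1.32 (adjusted p = 0.0107), rests on arrays 2 and 3. Without array 1 it was 7.31, adjusted p = 3.84e-10, without array 2 it was 3.35, adjusted p = 0.0746 and without array 3 it was 3.01, adjusted p = 0.0828, and on the 8 compared arrays alone it did not pass either (adjusted p = 0.066). The 2 other Mycn probe sets averaged 2.96 and 3.42 in the DN2-labelled arrays, against 3.0 and 3.50 in the LSK-labelled arrays, which is background in both groups. Bcl2 had the same layout, with 9.25, 9.94, 9.51, 9.79 and 9.90 in DN2-labelled arrays, against 11.30, 6.75 and 5.27 in LSK-labelled arrays. Its difference of 1.90 ± 0.90 (adjusted p = 0.0946) did not pass the test with array 1 and did without it (3.67, adjusted p = 6.37e-06), and a second Bcl2 probe set that passed the filter differed by −2.02. Myc itself read 5.62, 5.93, 5.48, 5.58 and 6.35 in DN2-labelled arrays, against 5.98, 6.13 and 5.95 in LSK-labelled arrays. The groups overlapped for Myc, and its difference was −0.23 ± 0.23 (adjusted p = 0.444). For scale, Mycn was between 12.06 and 13.15 in the 5 GMP-labelled leukemia arrays, against 4.21 and 4.52 in healthy DN2 cells and 3.96 and 4.58 in healthy GMP. Bcl2 was between 10.08 and 11.53 in the GMP-labelled leukemias, against 6.99 and 6.78 in healthy DN2 cells and 6.51 and 5.89 in healthy GMP. By these signals LSK-labelled arrays 2 and 3 lay with the healthy cells. Myc was between 5.64 and 6.49 in the GMP-labelled leukemias, against 10.10 and 10.28 in healthy DN2 cells and 10.65 and 10.37 in healthy GMP, and by Myc LSK-labelled arrays 2 and 3 lay with the other leukemias. Whether the cells of these arrays carried the vector, and what part its level has in the differences below, was not tested. The sources used here do not say which member of the Myc family was put into the cells, beyond the name Myc. Whether a probe set reads the transgene or the mouse's own gene was not analysed here.

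**Figure D1:**
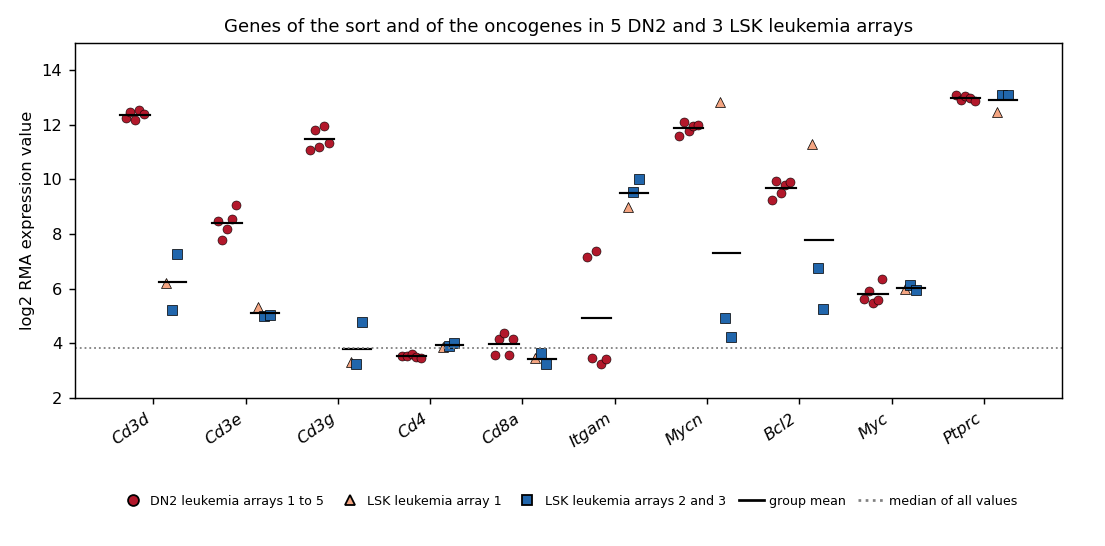
Log2 expression values of sort marker genes and oncogenes in the 5 DN2-labelled arrays (circles), LSK-labelled array 1 (triangle) and LSK-labelled arrays 2 and 3 (squares), with the group means as bars and the median of all values as a dotted line. The 3 CD3 chains are high in all DN2-labelled arrays, Itgam is at background in 3 of them, and Mycn and Bcl2 are high in LSK-labelled array 1 and low in arrays 2 and 3.

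Of 11629 genes tested, 5515 were called (47.4%), with 3296 higher in the DN2-labelled arrays (28.3%) and 2219 lower (19.1%), and 3490 of them had a fold of at least 2. The values of the 5 and the 3 arrays did not overlap for 4878 genes (41.9%). Counts of called and of non-overlapping list members below are to be read against these shares. The median difference over all genes was 0.11, and centring each array on its median brought it to −0.01, so list medians below are to be read against 0.11. LSK-labelled array 1 was on the same side as arrays 2 and 3, beyond all DN2-labelled arrays, for 4750 of the 5515 called genes (86.1%). It lay in the same direction but within the DN2 range for 635 (11.5%), and on the other side for 126 (2.28%). These shares are raised by the test itself, which used array 1.

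A second count took the calls made without LSK-labelled array 1 and then placed that array. Of 5615 genes called in this way (48.3%; 27.1% higher and 21.2% lower), array 1 was on the same side for 4181 (74.5%), within the DN2 range for 787 (14%) and on the other side for 646 (11.5%). The placing differed by direction: array 1 was on the same side for 2570 of 3147 higher genes (81.7%) and for 1611 of 2468 lower genes (65.3%). With array 1 as the only LSK-labelled array, assumed to vary like the other groups, 3172 genes were called (27.3%; 17.1% higher and 10.2% lower), of which 2659 were also called with all 3. Among the genes called higher, the median difference of the DN2-labelled mean was 1.03 from LSK-labelled array 1, 1.21 from array 2 and 1.19 from array 3. Among the genes called lower it was −1.08 from array 1, against −1.63 and −1.75 from arrays 2 and 3. The plot of called shares by gene list gives the outline of what follows.

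**Figure D2:**
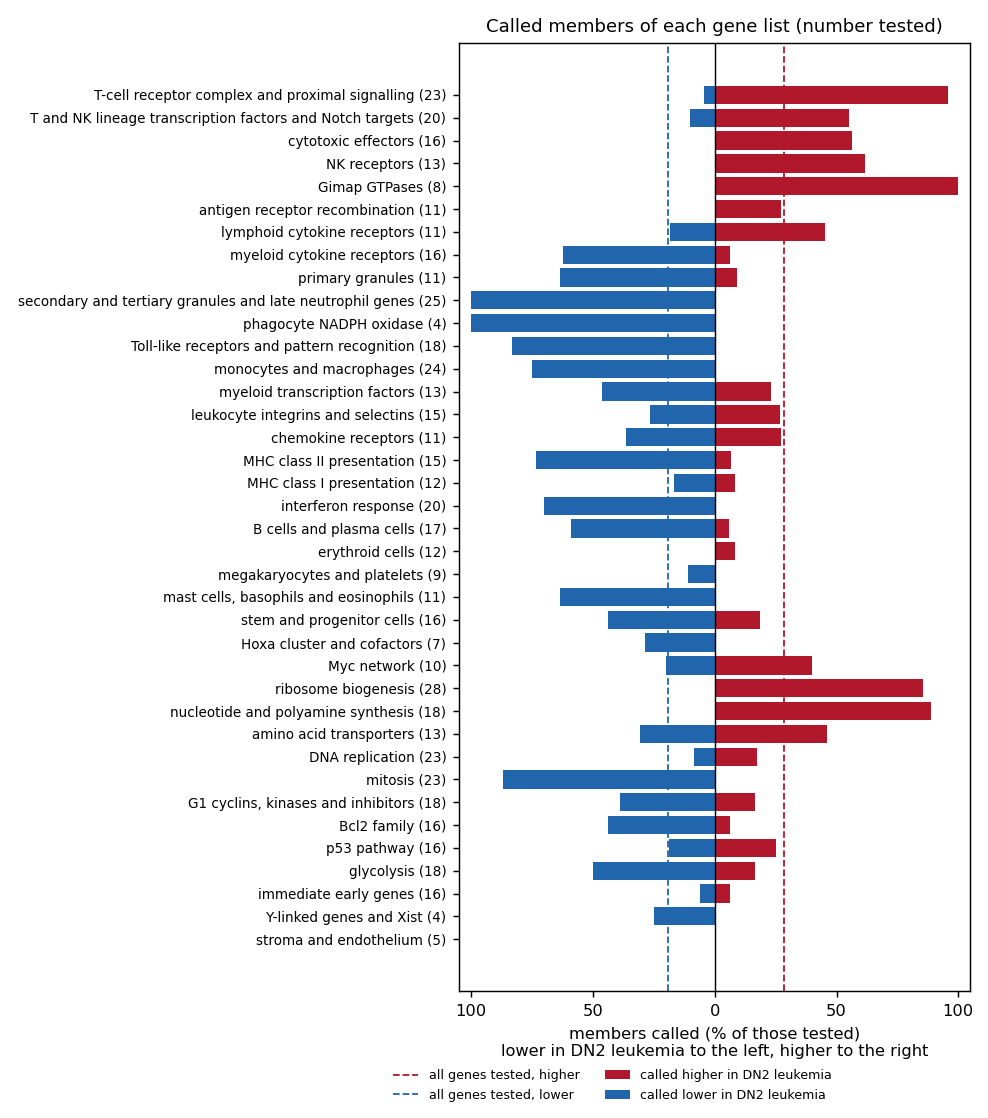
Share of the tested members of each gene list that was called lower (bars to the left) or higher (bars to the right) in the DN2-labelled arrays, in percent, with the number tested in brackets and the shares over all genes tested as dashed lines (19.1% lower, 28.3% higher). T-cell receptor and Gimap lists lie almost wholly to the right, and late neutrophil genes and the phagocyte oxidase wholly to the left.

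The T-cell receptor complex and its first signalling steps were more abundant in the DN2-labelled arrays with few exceptions. Of 23 tested members, 22 rose and 1 fell, with a median difference of 4.69, and 21 did not overlap between the groups. The mean of the list was between 9.24 and 9.78 in the DN2-labelled arrays and between 5.18 and 5.31 in the LSK-labelled arrays. It was 7.31 and 7.17 in the healthy DN2 arrays and between 4.44 and 4.63 in the GMP-labelled arrays, given here for scale only. Sh2d1a, the adaptor SAP that links SLAM receptors to Fyn, read 10.99, 11.29, 10.99, 11.21 and 10.95 in DN2-labelled arrays, against 2.99, 3.72 and 4.24 in LSK-labelled arrays. Cd28, the costimulatory receptor, read 10.60, 11.15, 9.87, 10.60 and 11.52 in DN2-labelled arrays, against 4.15, 4.07 and 3.86 in LSK-labelled arrays. Every DN2-labelled array exceeded every LSK-labelled array by far for both genes, and the differences were 7.44 ± 0.23 (adjusted p = 1.39e-11) and 6.72 ± 0.30 (adjusted p = 3.44e-10). Thy1, the surface glycoprotein that marks mouse T cells, read 10.74, 11.32, 11.30, 11.57 and 10.94 in DN2-labelled arrays, against 4.75, 4.83 and 4.30 in LSK-labelled arrays. Lat, the scaffold that gathers signalling proteins under the receptor, read 9.73, 10.38, 9.87, 10.51 and 10.37 in DN2-labelled arrays, against 3.96, 4.20 and 4.62 in LSK-labelled arrays. The groups were again far apart, at 6.55 ± 0.30 (adjusted p = 5.52e-10) and 5.91 ± 0.37 (adjusted p = 1.82e-08), and LSK-labelled array 1 was at the level of arrays 2 and 3 in all 4 genes. The member that fell was Lcp2 (SLP-76), an adaptor used by T cells and myeloid cells alike, with a difference of −0.74 ± 0.22 (adjusted p = 0.0124) that did not pass without LSK-labelled array 2 (−0.62, adjusted p = 0.0655) or with its probe set of highest SD (−0.58, adjusted p = 0.428). Calls made without LSK-labelled array 1 gave 21 higher and 1 lower, and calls against array 1 alone gave 21 higher and 0 lower, so the list did not turn on that array.

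Transcription factors of the T and NK lineages were mixed. Of 20 tested members 11 rose (55%) and 2 fell (10%), against 28.3% and 19.1% over all genes, and the median difference was 1.61. Bcl11b, the zinc finger protein that fixes the T-cell fate, read 9.36, 9.22, 9.67, 9.64 and 8.30 in DN2-labelled arrays, against 2.71, 2.95 and 3.12 in LSK-labelled arrays. All DN2-labelled arrays were high and all LSK-labelled arrays at background (6.31 ± 0.79 (adjusted p = 1.88e-05)). Eomes and Tbx21 (T-bet), the T-box factors of NK cells and cytotoxic T cells, rose by 5.42 ± 0.28 (adjusted p = 2.35e-09) and by 4.92 ± 0.49 (adjusted p = 2.31e-06). Id3, an inhibitor of E proteins, read 9.33, 10.03, 10.19, 10.82 and 10.52 in DN2-labelled arrays, against 4.24, 7.80 and 5.76 in LSK-labelled arrays. It did not overlap between the groups either (4.24 ± 0.56 (adjusted p = 2.97e-05)), although LSK-labelled array 2 was well above arrays 1 and 3. Ikzf2 (Helios) read 12.01, 12.04, 11.66, 12.30 and 11.82 in DN2-labelled arrays, against 10.75, 4.24 and 4.66 in LSK-labelled arrays. Here LSK-labelled array 1 was close to the DN2-labelled arrays and arrays 2 and 3 were near background, so the array 1 value was on the same side but not at a like level (5.42 ± 1.03 (adjusted p = 0.000655)). The factors that fell were Hes1, a Notch target, at −4.17 ± 0.52 (adjusted p = 2.00e-05), and Zbtb7b (ThPOK), a CD4-lineage factor, at −1.57 ± 0.25 (adjusted p = 0.000133).

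Effector genes of cytotoxic cells were higher in part, and their level varied between the DN2-labelled arrays. Of 16 tested, 9 rose and 0 fell, with a median of 2.34. The differences of the members ran from −2.99 to 7.86, 7 members did not pass, and those named here are among the 9 that rose. Gzmk, granzyme K, had the largest rise among the named genes whose arrays did not overlap, with 11.94, 10.97, 12.29, 12.15 and 12.06 in DN2-labelled arrays, against 3.81, 4.17 and 4.09 in LSK-labelled arrays. All DN2-labelled arrays were high, array 2 the least so, and the LSK-labelled arrays were near background, including array 1 (7.86 ± 0.24 (adjusted p = 1.39e-11)). Ctsw, cathepsin W of cytotoxic granules, rose by 4.31 ± 0.29 (adjusted p = 3.35e-08). Ifng, interferon gamma, rose by 4.21 ± 0.49 (adjusted p = 9.27e-06), and Serpinb9, which shields cells from granzyme B, rose by 3.91 ± 0.50 (adjusted p = 2.48e-05). Nkg7, a cytotoxic granule membrane protein, read 12.51, 11.50, 12.61, 12.10 and 11.41 in DN2-labelled arrays, against 7.31, 9.64 and 9.62 in LSK-labelled arrays. LSK-labelled array 1 was the lowest array, arrays 2 and 3 stood between it and the DN2-labelled arrays, and the difference was 3.17 ± 0.97 (adjusted p = 0.0144), or 2.40, adjusted p = 0.078 without array 1. The list mean was 10.60 and 10.68 in DN2-labelled arrays 1 and 3, but 7.75, 8.80 and 8.85 in arrays 2, 4 and 5, against 6.56, 7.76 and 7.13 in LSK-labelled arrays 1, 2 and 3. Array 2 of the DN2-labelled set thus sat at the level of LSK-labelled array 2 for the list as a whole.

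NK-cell receptors followed the same split. Of 13 tested, 8 rose and 0 fell, with a median of 3.73. The arrays of 6 did not overlap, a share near the 41.9% over all genes. The differences of the members ran from −2.74 to 4.94, 5 members did not pass, and those named here are among the 8 that rose. Klrb1c (NK1.1), the antigen that defines NK cells in C57/Bl6 mice, read 10.80, 10.68, 10.88, 10.65 and 9.86 in DN2-labelled arrays, against 4.30, 6.04 and 6.55 in LSK-labelled arrays. Klrk1 (NKG2D), an activating receptor, read 11.85, 9.10, 12.09, 10.70 and 11.53 in DN2-labelled arrays, against 5.16, 7.98 and 7.30 in LSK-labelled arrays. Klrd1 (CD94), which pairs with NKG2 chains, read 11.90, 10.43, 11.78, 11.28 and 10.12 in DN2-labelled arrays, against 5.55, 7.60 and 8.31 in LSK-labelled arrays. All 3 were higher in each DN2-labelled array than in each LSK-labelled one, by 4.94 ± 0.38 (adjusted p = 1.78e-07), 4.24 ± 0.62 (adjusted p = 8.06e-05) and 3.95 ± 0.52 (adjusted p = 3.14e-05), and LSK-labelled array 1 was the lowest array in each. Klrb1a, another member of that family, rose by 4.02 ± 0.51 (adjusted p = 2.21e-05). Il2rb, the receptor chain for interleukins 2 and 15, was uniform in both groups and rose by 4.44 ± 0.17 (adjusted p = 6.62e-11). The mean of the list was 9.96 and 10.06 in DN2-labelled arrays 1 and 3, and 6.78, 7.91 and 7.41 in arrays 2, 4 and 5, against 4.99, 6.63 and 6.86 in the LSK-labelled arrays. Without DN2-labelled arrays 1 and 3, where 43.8% of all genes were called (26% higher, 17.8% lower), the list gave 8 higher and 5 lower calls, with a median of 2.93, and the cytotoxic list gave 8 higher and 3 lower with a median of 1.66.

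The Gimap genes, a cluster of GTPases that support lymphocyte survival, rose together. All 8 members were called higher and none overlapped, with differences from 3.56 to 5.33. Gimap4 read 11.53, 11.59, 11.50, 11.49 and 11.36 in DN2-labelled arrays, against 4.79, 6.32 and 7.38 in LSK-labelled arrays. Gimap6 read 11.29, 11.42, 11.06, 11.40 and 11.21 in DN2-labelled arrays, against 5.75, 6.38 and 6.67 in LSK-labelled arrays. Both were even across the DN2-labelled arrays and lowest in LSK-labelled array 1, and they differed by 5.33 ± 0.37 (adjusted p = 5.33e-08) and 5.01 ± 0.18 (adjusted p = 4.59e-11). DN2-labelled array 5 was lower than the other DN2-labelled arrays for Gimap7 and Gimap8, at 6.87 and 8.86, and both genes still rose, by 4.36 ± 0.53 (adjusted p = 1.51e-05) and 4.58 ± 0.55 (adjusted p = 1.47e-05). Gimap9 rose by 4.35 ± 0.47 (adjusted p = 4.75e-06).

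Genes that cut and join antigen receptor segments showed no such rise. The median of 0.07 was close to that of all genes. Of 11 tested, 3 rose (27.3%, against 28.3% over all genes) and 0 fell, or 3 higher and 2 lower without LSK-labelled array 1. The 3 were Xrcc5 (5.51 ± 0.21 (adjusted p = 8.05e-11)), Xrcc6 (2.04 ± 0.38 (adjusted p = 0.000534)) and Prkdc (2.13 ± 0.18 (adjusted p = 5.22e-07)), which form the DNA-PK complex that repairs double strand breaks in every cell. Xrcc5 read 8.65, 9.52, 9.20, 9.11 and 8.96 in DN2-labelled arrays, against 3.87, 3.0 and 3.84 in LSK-labelled arrays, so that it was at background in all 3 LSK-labelled arrays. For Xrcc6, LSK-labelled array 1 stood between the groups at 7.96, against 6.36 and 6.61 in arrays 2 and 3. The recombination enzymes that only lymphocytes make did not pass the test. Among receptors for lymphoid cytokines 5 of 11 rose (45.5%) and 2 fell (18.2%), against 28.3% and 19.1% over all genes. Il27ra, an interleukin 27 receptor chain, rose by 4.15 ± 0.24 (adjusted p = 7.32e-09), Il18r1, which binds interleukin 18, by 3.48 ± 0.52 (adjusted p = 9.51e-05) and Il12rb1, an interleukin 12 receptor chain, by 1.43 ± 0.25 (adjusted p = 0.000355). Il21r, the interleukin 21 receptor, rose by 1.32 ± 0.43 (adjusted p = 0.0191) with overlapping arrays, and the difference was 0.82, adjusted p = 0.123 without LSK-labelled array 1, 2.01, adjusted p = 0.000397 without array 2 and 1.14, adjusted p = 0.0841 without array 3.

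Apart from the listed pathways, 4 other genes were among the 12 largest rises. Myl1, a light chain of skeletal muscle myosin, read 10.04, 9.26, 10.46, 10.93 and 9.99 in DN2-labelled arrays, against 3.23, 3.02 and 3.11 in LSK-labelled arrays. Epha3, an ephrin receptor, read 9.54, 9.69, 8.83, 10.03 and 10.0 in DN2-labelled arrays, against 3.07, 2.85 and 3.06 in LSK-labelled arrays. Apobec2, a member of the cytidine deaminase family best known from muscle, read 9.19, 9.71, 10.08, 9.68 and 9.09 in DN2-labelled arrays, against 3.58, 3.23 and 3.35 in LSK-labelled arrays. Each was at background in all LSK-labelled arrays and high in all DN2-labelled arrays, with differences of 7.01 ± 0.28 (adjusted p = 1.16e-10), 6.62 ± 0.22 (adjusted p = 1.77e-11) and 6.17 ± 0.19 (adjusted p = 1.39e-11). Crtam, a receptor of activated NK and T cells, rose by 6.33 ± 0.17 (adjusted p = 4.08e-12). LSK-labelled array 1 was at a like level to arrays 2 and 3 in all 4 genes, while its side was set by the choice of genes without overlap.

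Late neutrophil genes fell without exception. All 25 tested members of secondary and tertiary granules and of the late neutrophil programme were called lower, and none overlapped between the groups, with a median difference of −7.37. The list mean was between 3.80 and 5.27 in the DN2-labelled arrays, against 10.49, 12.14 and 12.48 in LSK-labelled arrays 1, 2 and 3. Camp, the cathelicidin peptide of secondary granules, had the largest fall among the named genes whose arrays did not overlap, with 4.30, 3.75, 3.63, 4.43 and 4.98 in DN2-labelled arrays, against 12.70, 14.11 and 14.25 in LSK-labelled arrays. Ltf, lactoferrin, which binds iron in the same granules, read 4.80, 3.60, 4.24, 3.60 and 4.06 in DN2-labelled arrays, against 12.04, 13.54 and 13.81 in LSK-labelled arrays. Ngp, neutrophilic granule protein, read 5.72, 3.81, 4.04, 4.22 and 5.58 in DN2-labelled arrays, against 13.52, 13.96 and 14.15 in LSK-labelled arrays. The DN2-labelled arrays were near background and the LSK-labelled arrays close to the top of the scale. For Camp and Ltf LSK-labelled array 1 was more than a log2 unit below the nearer of arrays 2 and 3, and for Ngp it was at a like level. The differences were −9.46 ± 0.35 (adjusted p = 6.62e-11), −9.07 ± 0.35 (adjusted p = 8.90e-11) and −9.20 ± 0.41 (adjusted p = 4.30e-10). Lcn2, lipocalin 2, which captures bacterial iron carriers, fell by 9.08 ± 0.35 (adjusted p = 9.66e-11), and array 1 was again more than a log2 unit below arrays 2 and 3.

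S100a8 and S100a9, the subunits of calprotectin, showed residual signal in part of the DN2-labelled arrays. S100a9 read 7.36, 3.33, 3.96, 4.10 and 8.09 in DN2-labelled arrays, against 13.35, 14.18 and 14.21 in LSK-labelled arrays. S100a8 read 7.05, 3.39, 3.87, 4.13 and 8.03 in DN2-labelled arrays, against 13.18, 14.10 and 14.18 in LSK-labelled arrays. Arrays 1 and 5 of the DN2-labelled set were above the other 3 for both and still far below the LSK-labelled arrays (−8.54 ± 0.86 (adjusted p = 2.52e-06) and −8.53 ± 0.82 (adjusted p = 1.71e-06)). Other genes among the 12 largest falls were Hp, haptoglobin (−8.21 ± 0.58 (adjusted p = 6.37e-08)), Wfdc21, a whey acidic protein family member (−8.09 ± 0.49 (adjusted p = 1.10e-08)), Chil4, a chitinase-like protein (−8.13 ± 0.69 (adjusted p = 4.57e-07)), Mgst1, a membrane glutathione transferase (−8.22 ± 0.74 (adjusted p = 8.85e-07)), Ifitm6, an interferon-induced membrane protein (−8.17 ± 0.91 (adjusted p = 6.38e-06)), and Cxcl2, a neutrophil chemoattractant (−8.07 ± 0.74 (adjusted p = 9.95e-07)). In Mgst1 and Ifitm6, DN2-labelled array 1 stood out with 7.48 and 7.90, while the other DN2-labelled arrays were between 2.88 and 4.09. The largest falls were picked among genes without overlap, so the side of LSK-labelled array 1 was set by that choice. For Hp, Wfdc21, Chil4 and Ifitm6 it was more than a log2 unit below the nearer of arrays 2 and 3. The other Chil4 probe set averaged 2.96 in the DN2-labelled and 3.32 in the LSK-labelled arrays, and the other Mgst1 probe set 2.81 and 2.89. Both were at background in both groups. Whether the Chil4 probe set used also reads related genes was not analysed here. The 25 late neutrophil genes were all called lower again without LSK-labelled array 1 and with array 1 alone.

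The promoters of the late neutrophil genes are shown because their members moved together and because C/EBP factors, which bind TTGCNNAA or close variants, are known regulators of secondary granule genes. RefSeq promoter windows of GRCm38.p6, from 250 bases before to 50 bases after the gene start, were found for 21 of the members. The letters TTGCNNAA, searched on both strands, were present in 7 of these 21 windows (33.3%), against 2906 of all 27025 windows (10.8%). Among the primary granule genes, described below, they were present in 1 of 11 windows (9.09%). A match is a description of these letters only. The windows of Ltf (chr9:111019042-111019341, plus strand) and Ngp (chr9:110419558-110419857, plus strand) are printed with each match in capitals; in Ltf it starts at position −75 from the gene start, and Ngp holds 2 matches.
Ltf: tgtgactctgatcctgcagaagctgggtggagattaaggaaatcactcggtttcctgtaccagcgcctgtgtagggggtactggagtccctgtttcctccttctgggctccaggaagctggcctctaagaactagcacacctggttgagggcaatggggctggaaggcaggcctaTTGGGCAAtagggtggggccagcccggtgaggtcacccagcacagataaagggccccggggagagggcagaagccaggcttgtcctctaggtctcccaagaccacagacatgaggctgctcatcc
Ngp: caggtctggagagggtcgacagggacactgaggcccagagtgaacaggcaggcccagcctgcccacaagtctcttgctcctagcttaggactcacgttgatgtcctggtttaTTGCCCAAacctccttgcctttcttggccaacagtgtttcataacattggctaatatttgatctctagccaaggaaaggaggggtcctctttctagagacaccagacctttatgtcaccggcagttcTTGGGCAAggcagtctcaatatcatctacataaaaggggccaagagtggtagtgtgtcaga

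Primary granule genes fell too, but LSK-labelled array 1 had much less of them than arrays 2 and 3. Of 11 tested, 7 fell and 1 rose, with a median difference of −3.80. Mpo, myeloperoxidase, read 3.35, 3.40, 3.62, 3.67 and 3.56 in DN2-labelled arrays, against 8.18, 11.18 and 11.70 in LSK-labelled arrays. Prtn3, proteinase 3, read 3.74, 3.85, 3.51, 3.20 and 3.26 in DN2-labelled arrays, against 8.37, 11.13 and 11.54 in LSK-labelled arrays. The DN2-labelled arrays were at background throughout, and LSK-labelled array 1 was above background and about 3 log2 units under arrays 2 and 3 (−6.83 ± 1.22 (adjusted p = 0.000386) and −6.83 ± 0.71 (adjusted p = 3.54e-06)). Ctsg, cathepsin G, Ms4a3, a marker of granulocyte progenitors, and Hk3, a hexokinase of myeloid cells, had the same layout and fell, with differences of −5.74 ± 1.02 (adjusted p = 0.000362), −5.69 ± 0.70 (adjusted p = 1.79e-05) and −4.76 ± 0.49 (adjusted p = 3.02e-06). The median difference from the DN2-labelled mean was −1.07 for LSK-labelled array 1, −4.99 for array 2 and −5.79 for array 3. Against array 1 alone, 3 genes were called lower and 1 higher. The gene that rose in the main comparison was Nkg7, which is also a gene of cytotoxic cells.

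The phagocyte NADPH oxidase, which makes the oxidative burst, fell in all 4 tested members. Cybb, its membrane catalytic subunit gp91phox, read 10.44, 2.98, 5.69, 4.44 and 3.22 in DN2-labelled arrays, against 12.27, 12.77 and 12.90 in LSK-labelled arrays. DN2-labelled array 1 was far above the other DN2-labelled arrays and still below every LSK-labelled array (−7.29 ± 1.19 (adjusted p = 0.000183)). Ncf4 (p40phox), Cyba (p22phox) and Rac2, the GTPase of the complex, fell, with differences of −3.41 ± 0.46 (adjusted p = 3.69e-05), −1.86 ± 0.27 (adjusted p = 8.05e-05) and −0.79 ± 0.22 (adjusted p = 0.00851), and Rac2 did not pass without LSK-labelled array 3 (−0.63, adjusted p = 0.0553). Of 18 Toll-like and other pattern receptors, 15 fell and 0 rose, with a median of −2.71. Clec7a (Dectin-1), a receptor for fungal glucans, read 9.60, 3.76, 4.33, 4.06 and 3.97 in DN2-labelled arrays, against 10.45, 12.62 and 12.61 in LSK-labelled arrays. Tlr2, a receptor for bacterial lipopeptides, read 5.91, 3.31, 3.28, 3.95 and 4.02 in DN2-labelled arrays, against 6.88, 11.14 and 9.99 in LSK-labelled arrays. DN2-labelled array 1 came within about a log2 unit of LSK-labelled array 1 in both, while LSK-labelled arrays 2 and 3 were well above (−6.75 ± 1.03 (adjusted p = 0.000106) and −5.24 ± 0.76 (adjusted p = 7.31e-05)). Clec4e (Mincle), Clec4d, its partner, and Cd14, the lipopolysaccharide co-receptor, fell, with differences of −6.62 ± 0.62 (adjusted p = 1.23e-06), −6.36 ± 0.60 (adjusted p = 1.26e-06) and −4.88 ± 0.67 (adjusted p = 4.55e-05). The median difference of this list was −0.85 from LSK-labelled array 1, against −4.02 from array 2 and −3.50 from array 3, and 7 genes were called lower against array 1 alone.

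Genes of the myeloid cytokine receptor list, which also holds a receptor antagonist, were lower: of 16 tested, 10 fell and 1 rose, with a median of −3.85. Csf3r, the G-CSF receptor that drives neutrophil production, read 5.40, 4.96, 5.14, 4.50 and 4.38 in DN2-labelled arrays, against 8.47, 11.47 and 11.81 in LSK-labelled arrays. Csf2rb, the common chain of the GM-CSF, interleukin 3 and interleukin 5 receptors, read 6.90, 3.76, 3.98, 3.93 and 3.30 in DN2-labelled arrays, against 9.90, 10.80 and 11.05 in LSK-labelled arrays. Both were higher in all LSK-labelled arrays, array 1 included, although for Csf3r array 1 was about 3 log2 units under the others (−5.71 ± 0.65 (adjusted p = 8.18e-06) and −6.21 ± 0.60 (adjusted p = 1.64e-06)). Il1r2, the decoy receptor for interleukin 1, Il1rn, the interleukin 1 receptor antagonist, and Ifngr2, a chain of the interferon gamma receptor, fell, with differences of −5.77 ± 0.61 (adjusted p = 3.78e-06), −5.13 ± 0.68 (adjusted p = 3.50e-05) and −4.85 ± 0.42 (adjusted p = 6.63e-07). The gene that rose was Il6st (gp130), the shared signal chain of interleukin 6 receptors, at 1.31 ± 0.41 (adjusted p = 0.0163), or 0.76, adjusted p = 0.11 without LSK-labelled array 1.

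Of 24 monocyte and macrophage genes 18 fell and 0 rose, with a median of −4.58. Mpeg1, a pore-forming protein of macrophages, read 10.01, 3.60, 5.48, 5.21 and 3.66 in DN2-labelled arrays, against 10.74, 12.86 and 13.12 in LSK-labelled arrays. Adgre1 (F4/80), the classical macrophage antigen, read 7.60, 3.02, 3.07, 3.80 and 3.17 in DN2-labelled arrays, against 10.91, 10.13 and 9.67 in LSK-labelled arrays. Again DN2-labelled array 1 carried far more of both than the other DN2-labelled arrays, and no array overlapped (−6.65 ± 1.08 (adjusted p = 0.000186) and −6.10 ± 0.87 (adjusted p = 6.20e-05)). F13a1, a clotting factor subunit of monocytes, read 3.07, 2.99, 3.39, 3.20 and 3.20 in DN2-labelled arrays, against 7.54, 11.29 and 12.03 in LSK-labelled arrays. It was at background in all DN2-labelled arrays, array 1 included (−7.12 ± 1.45 (adjusted p = 0.00106)). Ccl6, a chemokine, and Fn1, fibronectin, fell, with differences of −7.43 ± 0.89 (adjusted p = 1.30e-05) and −6.38 ± 0.95 (adjusted p = 8.88e-05). The list mean was 7.29 in DN2-labelled array 1 and between 4.37 and 5.42 in arrays 2 to 5, against 8.14 in LSK-labelled array 1 and 9.93 and 9.77 in arrays 2 and 3. Without DN2-labelled arrays 1 and 3 the counts were 18 lower and 0 higher.

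The factors that direct myeloid development went in both directions. Of 13 tested, 6 fell (46.2%) and 3 rose (23.1%), against 19.1% lower and 28.3% higher over all genes. Spi1 (PU.1), the master factor of myeloid cells, read 6.56, 3.72, 3.96, 3.69 and 4.66 in DN2-labelled arrays, against 9.67, 10.38 and 10.24 in LSK-labelled arrays. Cebpd read 3.81, 3.20, 2.70, 2.76 and 3.16 in DN2-labelled arrays, against 8.0, 11.05 and 11.67 in LSK-labelled arrays. Nfe2, a factor of blood progenitors and platelets, read 5.26, 4.34, 4.54, 4.84 and 3.22 in DN2-labelled arrays, against 10.79, 11.04 and 11.32 in LSK-labelled arrays. None overlapped, and the differences were −5.58 ± 0.50 (adjusted p = 8.28e-07), −7.11 ± 0.58 (adjusted p = 3.05e-07) and −6.61 ± 0.38 (adjusted p = 7.30e-09). For Spi1 and Nfe2 the 3 LSK-labelled arrays were at a like level, whereas Cebpd was about 3 log2 units lower in array 1 than in arrays 2 and 3. Hlx, a homeobox factor, and Cebpb fell, with differences of −3.53 ± 0.21 (adjusted p = 9.84e-09) and −2.93 ± 0.37 (adjusted p = 2.18e-05). The factors that rose were Egr2 (2.89 ± 0.59 (adjusted p = 0.00112)), Myb (2.63 ± 0.50 (adjusted p = 0.000616)), which is used by progenitors of many lineages, and Gfi1 (1.46 ± 0.31 (adjusted p = 0.00149)), a repressor of granulocytes and lymphocytes alike.

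Adhesion and homing receptors were called in both directions as well. Of 15 integrins and selectins 4 fell and 4 rose (26.7% each). Of 11 chemokine and sphingosine phosphate receptors 4 fell (36.4%) and 3 rose (27.3%). Over all genes 19.1% were called lower and 28.3% higher, so the shares that rose were near that of all genes. Itga6, the laminin receptor chain CD49f, read 9.62, 10.49, 9.56, 10.19 and 9.48 in DN2-labelled arrays, against 3.74, 5.75 and 6.91 in LSK-labelled arrays. It rose without overlap (4.40 ± 0.64 (adjusted p = 7.44e-05)), and LSK-labelled array 1 was the lowest array. Itgb3, Cd44, the hyaluronan receptor, and Itgb2 (CD18), the partner of CD11b, fell, with differences of −3.48 ± 0.53 (adjusted p = 0.0001), −1.95 ± 0.37 (adjusted p = 0.000644) and −1.89 ± 0.43 (adjusted p = 0.00257). Ccr1, a receptor of inflammatory chemokines, read 2.93, 2.90, 2.96, 3.0 and 3.37 in DN2-labelled arrays, against 9.20, 10.91 and 11.17 in LSK-labelled arrays. Cxcr2, which draws neutrophils, read 4.29, 4.48, 3.83, 4.63 and 3.66 in DN2-labelled arrays, against 7.46, 9.27 and 10.0 in LSK-labelled arrays. Both were at or near background in the DN2-labelled arrays and lower in LSK-labelled array 1 than in arrays 2 and 3 (−7.39 ± 0.64 (adjusted p = 5.79e-07) and −4.73 ± 0.55 (adjusted p = 9.48e-06)). S1pr1, by which lymphocytes leave tissues, and Cxcr3, a receptor of effector T and NK cells, rose by 4.38 ± 0.33 (adjusted p = 1.30e-07) and 4.32 ± 0.48 (adjusted p = 5.82e-06). Ccr2, the monocyte chemokine receptor, read 6.75, 3.99, 7.42, 4.07 and 3.45 in DN2-labelled arrays, against 6.26, 9.95 and 10.96 in LSK-labelled arrays. Its call (−3.92 ± 1.03 (adjusted p = 0.006)) came from LSK-labelled arrays 2 and 3, since array 1 lay within the DN2 range.

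**Figure D3:**
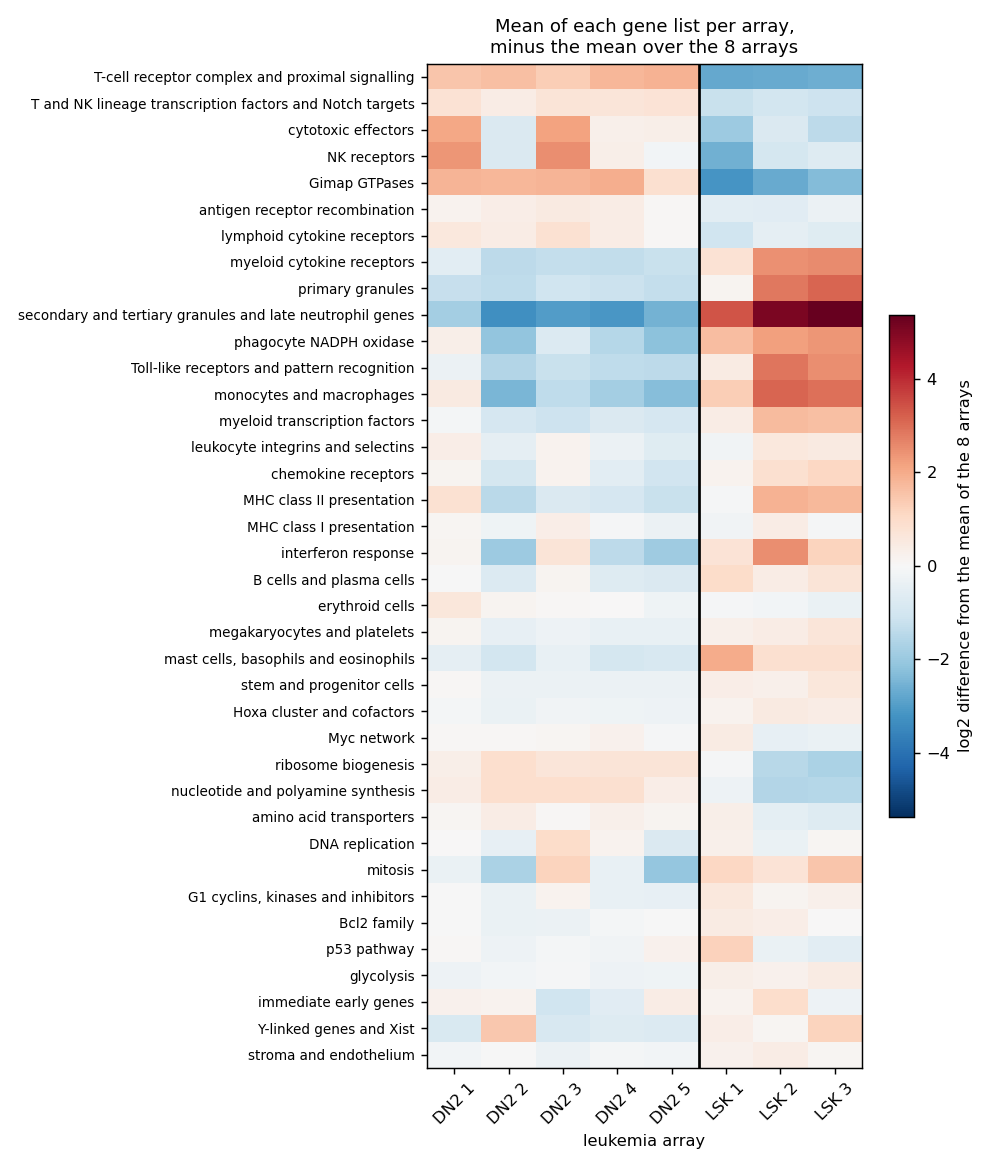
Mean log2 value of each gene list in each of the 8 arrays, as the difference from the mean of that list over the 8 arrays (red higher, blue lower). DN2-labelled arrays are left of the line and LSK-labelled arrays right of it. DN2-labelled arrays 1 and 3 stand out for cytotoxic, NK and interferon genes, array 1 for monocyte and MHC class II genes, and LSK-labelled array 1 for weaker primary granule and pattern receptor genes.

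Genes of MHC class II presentation, by which macrophages, dendritic cells and B cells show peptides to CD4 T cells, were called lower, but mostly with overlap. Of 15 tested, 11 fell and 1 rose, the median was −2.21, and 1 gene had arrays that did not overlap. H2-Aa, a class II alpha chain, read 11.13, 3.45, 7.77, 6.59 and 4.83 in DN2-labelled arrays, against 9.56, 11.48 and 11.67 in LSK-labelled arrays. Cd74, the invariant chain, read 8.65, 3.83, 5.67, 5.08 and 3.93 in DN2-labelled arrays, against 7.80, 9.72 and 9.82 in LSK-labelled arrays. DN2-labelled array 1 exceeded LSK-labelled array 1 in both, and the other DN2-labelled arrays were lower, array 2 at background. The differences were −4.15 ± 1.30 (adjusted p = 0.0166) and −3.68 ± 0.89 (adjusted p = 0.00358). H2-Ab1, H2-Eb1 and H2-DMb2, which encode class II chains and a chain of the peptide exchanger, fell, with differences of −4.07 ± 1.0 (adjusted p = 0.00395), −3.51 ± 1.14 (adjusted p = 0.02) and −3.11 ± 0.77 (adjusted p = 0.00427). Without LSK-labelled array 2 or 3, H2-Aa (−3.86, adjusted p = 0.0608; −3.77, adjusted p = 0.0656) and H2-Eb1 (−2.98, adjusted p = 0.089; −2.99, adjusted p = 0.0888) did not pass. The list gave 6 lower calls and 1 higher without LSK-labelled array 2. For 10 of the called members LSK-labelled array 1 was within the DN2 range, and against that array alone 1 gene was called lower and 1 higher. The gene that rose was H2-Ob, a modulator of peptide exchange, at 2.41 ± 0.57 (adjusted p = 0.00308). MHC class I presentation differed little, with 2 of 12 lower (16.7%) and 1 higher (8.33%), both under the shares over all genes (19.1% and 28.3%). H2-D1 was lower (−0.85 ± 0.19 (adjusted p = 0.00192)) and did not pass with its probe set of highest SD (−0.24, adjusted p = 0.505). Tapbp, tapasin, was lower (−0.70 ± 0.17 (adjusted p = 0.0035)), and Erap1, a peptide-trimming enzyme, was higher (1.32 ± 0.17 (adjusted p = 2.78e-05)).

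Of the interferon response genes, 14 of 20 were called lower in the DN2-labelled arrays and 0 higher, with a median of −2.37. Oas2, which senses viral double-stranded RNA, read 5.75, 3.67, 5.52, 3.50 and 3.73 in DN2-labelled arrays, against 9.75, 10.17 and 9.19 in LSK-labelled arrays. Rsad2 (viperin), an antiviral enzyme, read 8.75, 5.87, 8.91, 6.37 and 7.13 in DN2-labelled arrays, against 10.33, 11.76 and 10.27 in LSK-labelled arrays. Arrays 1 and 3 were the highest DN2-labelled arrays in both, and the groups did not overlap (−5.27 ± 0.79 (adjusted p = 9.25e-05) and −3.38 ± 0.76 (adjusted p = 0.00227)). Ifit3, an antiviral RNA-binding protein, read 8.79, 4.99, 9.66, 6.19 and 4.66 in DN2-labelled arrays, against 8.96, 11.69 and 9.40 in LSK-labelled arrays. LSK-labelled array 1 lay within the DN2 range for this gene, since DN2-labelled array 3 exceeded it, and the call was −3.16 ± 1.23 (adjusted p = 0.0469). Oasl2 and Ifit1 fell, with differences of −5.0 ± 1.05 (adjusted p = 0.00131) and −3.01 ± 0.95 (adjusted p = 0.0172). The list gave 7 lower calls without LSK-labelled array 2. Without that array, Ifit1 (−2.25, adjusted p = 0.103) and Ifit3 (−2.32, adjusted p = 0.203) did not pass, and Ifit3 did not pass without LSK-labelled array 3 or DN2-labelled array 2, 4 or 5 either (adjusted p from 0.0739 to 0.102). The mean of the list was 7.82 and 8.35 in DN2-labelled arrays 1 and 3 and between 5.70 and 6.25 in arrays 2, 4 and 5, against 8.41, 10.16 and 8.86 in LSK-labelled arrays 1, 2 and 3. Against LSK-labelled array 1 alone, 3 genes were called lower.

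Genes of B cells and plasma cells were counted because such cells are common in spleen. Of 17 tested, 10 fell and 1 rose, with a median of −1.21, or −0.70 without LSK-labelled array 1. Jchain, the chain that joins secreted immunoglobulins, read 6.67, 3.18, 7.68, 3.20 and 4.58 in DN2-labelled arrays, against 12.89, 10.47 and 10.47 in LSK-labelled arrays. It was high in all LSK-labelled arrays and varied in the DN2-labelled arrays, where arrays 1 and 3 were above background (−6.21 ± 0.91 (adjusted p = 7.51e-05)). Ms4a1 (CD20) read 4.73, 3.07, 5.43, 2.97 and 3.28 in DN2-labelled arrays, against 4.75, 6.92 and 7.60 in LSK-labelled arrays, and its call (−2.53 ± 0.60 (adjusted p = 0.00306)) rests on LSK-labelled arrays 2 and 3. Ighm, the immunoglobulin M heavy chain, was at 7.30 in LSK-labelled array 1 alone and close to background in the other 7 arrays (−1.81 ± 0.59 (adjusted p = 0.0204), or −0.59, adjusted p = 0.00829 without array 1). Blnk, an adaptor of the B-cell receptor, fell by 2.43 ± 0.57 (adjusted p = 0.00303), and its difference was −1.59, adjusted p = 0.0158 without LSK-labelled array 1. Pou2af1, a coactivator of octamer factors in lymphocytes, read 9.22, 9.96, 9.28, 10.09 and 8.44 in DN2-labelled arrays, against 8.01, 4.99 and 5.82 in LSK-labelled arrays and rose by 3.13 ± 0.51 (adjusted p = 0.000189). The mean of the list was between 4.47 and 5.36 in the DN2-labelled arrays and between 5.61 and 6.21 in the LSK-labelled arrays. The part of B cells or plasma cells in the differences was not tested.

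Mast cell, basophil and eosinophil genes were lower in 7 of 11 tested members and higher in 0. Hdc, the enzyme that makes histamine, read 5.32, 5.22, 4.04, 4.95 and 5.78 in DN2-labelled arrays, against 11.76, 11.20 and 11.38 in LSK-labelled arrays. The 3 LSK-labelled arrays were at a like level, and no array overlapped (−6.38 ± 0.67 (adjusted p = 3.93e-06)). Mcpt8, a basophil protease, Ms4a2 and Fcer1a, chains of the high-affinity IgE receptor, fell, with differences of −3.44 ± 0.63 (adjusted p = 0.000492), −1.35 ± 0.31 (adjusted p = 0.00233) and −1.10 ± 0.20 (adjusted p = 0.000536), the last of them from values near background, and Ms4a2 was at −0.87, adjusted p = 0.0134 without LSK-labelled array 3. Against LSK-labelled array 1 alone Mcpt8, Ms4a2 and Fcer1a differed by −2.06, −0.41 and −0.42. Prg2, the major basic protein of eosinophils, read 3.62, 3.54, 3.66, 3.58 and 3.73 in DN2-labelled arrays, against 13.19, 6.35 and 4.41 in LSK-labelled arrays. LSK-labelled array 1 was far above arrays 2 and 3, which were still above every DN2-labelled array (−4.36 ± 1.36 (adjusted p = 0.0162)), and the gene did not pass without array 1 (−1.76, adjusted p = 0.0517). The mean of this list was between 3.42 and 4.01 in the DN2-labelled arrays, against 6.40 in LSK-labelled array 1 and 5.30 and 5.29 in arrays 2 and 3.

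Erythroid, megakaryocyte and stroma genes gave few calls in the fit of all arrays. Of 12 erythroid genes 1 rose, Car2, a carbonic anhydrase (3.46 ± 0.54 (adjusted p = 0.000123)), and 0 fell, and 2 were called when any 1 of the LSK-labelled arrays was left out. Of 9 megakaryocyte and platelet genes 1 fell, Gata2 (−0.60 ± 0.21 (adjusted p = 0.0302)), at values near background, and it did not pass without LSK-labelled array 2 or 3 or DN2-labelled array 2 or 3 (adjusted p from 0.0584 to 0.0909). Without LSK-labelled array 1 that list gave 4 lower calls, without DN2-labelled array 1 it gave 2, and without DN2-labelled array 2 or 3 it gave 0. The 5 tested genes of stroma and endothelium did not pass the test, and 1 was called lower without LSK-labelled array 3. Among stem and progenitor genes 7 of 16 fell (43.75%) and 3 rose (18.75%), against 19.1% and 28.3% over all genes. Without LSK-labelled array 3 the counts were 4 lower and 2 higher. Lmo2, a bridging protein of blood stem cells, read 6.64, 3.36, 3.62, 3.57 and 3.76 in DN2-labelled arrays, against 9.70, 10.59 and 10.81 in LSK-labelled arrays. Lyl1, its partner of the basic helix-loop-helix family, read 7.26, 5.20, 5.49, 4.93 and 4.12 in DN2-labelled arrays, against 10.97, 10.65 and 10.44 in LSK-labelled arrays. DN2-labelled array 1 was the highest of its group in both, below every LSK-labelled array, and the LSK-labelled arrays were at a like level (−6.18 ± 0.58 (adjusted p = 1.21e-06) and −5.29 ± 0.49 (adjusted p = 1.05e-06)). Erg, an ETS factor of stem cells, read 2.64, 2.94, 2.73, 2.45 and 2.62 in DN2-labelled arrays, against 3.98, 7.41 and 8.40 in LSK-labelled arrays. It was at background in all DN2-labelled arrays and near it in LSK-labelled array 1 (−3.92 ± 0.66 (adjusted p = 0.000235)). Sox4, a factor of lymphoid and other progenitors, read 11.01, 11.64, 10.41, 11.74 and 11.17 in DN2-labelled arrays, against 6.32, 4.24 and 5.33 in LSK-labelled arrays, and rose by 5.90 ± 0.50 (adjusted p = 5.25e-07) with LSK-labelled array 1 on the side of arrays 2 and 3. Of 7 genes of the Hoxa cluster and its cofactors 2 fell (28.6%, against 19.1% over all genes). They were Pbx2 (−1.74 ± 0.25 (adjusted p = 7.74e-05)) and Meis1 (−1.42 ± 0.20 (adjusted p = 5.48e-05)), and the tested Hoxa genes themselves did not pass.

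Ribosome assembly, a process that Myc proteins are known to drive, was higher in the DN2-labelled arrays, and LSK-labelled array 1 stood between the groups. Of 28 tested genes, 24 rose and 0 fell, with a median of 1.76, and 20 did not overlap. The list mean was between 9.05 and 9.65 in the DN2-labelled arrays, against 8.70 in LSK-labelled array 1, 7.24 in array 2 and 7.02 in array 3. Pus7, a pseudouridine synthase, read 9.41, 10.20, 9.37, 9.80 and 9.83 in DN2-labelled arrays, against 7.42, 4.42 and 4.76 in LSK-labelled arrays. Dkc1, the catalytic subunit of the box H/ACA particles, read 11.02, 11.79, 11.40, 11.58 and 11.21 in DN2-labelled arrays, against 10.15, 7.60 and 7.98 in LSK-labelled arrays. Nop58, a core protein of the box C/D particles, read 11.18, 11.41, 10.96, 11.14 and 11.07 in DN2-labelled arrays, against 10.33, 7.76 and 7.46 in LSK-labelled arrays. No array overlapped in these genes, and LSK-labelled array 1 was nearer to the DN2-labelled arrays than to arrays 2 and 3 (4.19 ± 0.50 (adjusted p = 1.33e-05), 2.82 ± 0.41 (adjusted p = 6.64e-05) and 2.64 ± 0.48 (adjusted p = 0.000467)). Gar1 and Utp20, a further H/ACA protein and a component of the small subunit processome, rose by 2.55 ± 0.42 (adjusted p = 0.000212) and 2.38 ± 0.33 (adjusted p = 4.90e-05). The median difference was 0.62 from LSK-labelled array 1, against 2.06 from array 2 and 2.41 from array 3. Against array 1 alone 7 genes were called higher, and without it 27.

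Promoters of 2 of these genes are shown because Myc proteins bind the E-box CACGTG. RefSeq windows were found for 23 of the ribosome assembly genes, and 5 of them (21.7%) held CACGTG, which reads the same on both strands, against 1957 of all 27025 windows (7.24%). Among the members called higher it was 3 of 19 (15.8%). The windows of Pus7 (chr5:23783662-23783961, minus strand) and Utp20 (chr10:88826765-88827064, minus strand) are given along the direction of transcription with the E-box in capitals, which starts 29 bases after the gene start in Pus7 and 38 bases after it in Utp20.
Pus7: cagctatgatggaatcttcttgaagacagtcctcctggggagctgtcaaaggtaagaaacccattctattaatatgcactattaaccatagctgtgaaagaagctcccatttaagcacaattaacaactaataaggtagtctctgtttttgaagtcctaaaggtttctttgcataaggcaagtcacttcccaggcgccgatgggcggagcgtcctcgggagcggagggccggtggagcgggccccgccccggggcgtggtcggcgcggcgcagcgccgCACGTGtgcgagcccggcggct
Utp20: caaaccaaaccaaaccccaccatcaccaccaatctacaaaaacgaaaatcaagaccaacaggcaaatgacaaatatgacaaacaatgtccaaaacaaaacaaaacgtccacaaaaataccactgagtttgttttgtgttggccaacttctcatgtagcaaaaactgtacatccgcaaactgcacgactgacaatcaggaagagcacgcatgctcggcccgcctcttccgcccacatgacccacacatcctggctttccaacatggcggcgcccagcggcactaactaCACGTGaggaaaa

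Nucleotide and polyamine synthesis had the same layout, with 16 of 18 genes higher, 0 lower and a median of 2.03. Cad, the enzyme that starts pyrimidine synthesis, read 8.72, 9.33, 9.39, 9.45 and 8.80 in DN2-labelled arrays, against 7.87, 4.95 and 5.48 in LSK-labelled arrays. All DN2-labelled arrays were above LSK-labelled array 1, which was well above arrays 2 and 3 (3.04 ± 0.46 (adjusted p = 9.88e-05)). Prps2, which makes the ribose donor of nucleotides, read 10.20, 10.58, 10.39, 10.54 and 10.04 in DN2-labelled arrays, against 7.55, 7.80 and 8.03 in LSK-labelled arrays. For this enzyme the 3 LSK-labelled arrays were at a like level (2.56 ± 0.23 (adjusted p = 9.13e-07)). Ppat, the first enzyme of purine synthesis, and Shmt1 and Mthfd1, enzymes of the folate cycle, rose by 2.42 ± 0.33 (adjusted p = 3.69e-05), 2.41 ± 0.39 (adjusted p = 0.000167) and 2.41 ± 0.40 (adjusted p = 0.00021). Median differences were 1.01, 2.46 and 2.50 from LSK-labelled arrays 1, 2 and 3.

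Amino acid transporters were called in both directions, with 6 of 13 higher (46.2%) and 4 lower (30.8%), against 28.3% and 19.1% over all genes. Slc7a5 (LAT1), the transporter of large neutral amino acids, read 9.0, 9.76, 9.30, 9.57 and 9.59 in DN2-labelled arrays, against 9.15, 6.05 and 5.84 in LSK-labelled arrays. LSK-labelled array 1 lay within the DN2 range, so the call (2.43 ± 0.55 (adjusted p = 0.00226)) rests on arrays 2 and 3. Slc7a6, Slc7a1, which carries arginine and lysine, and Slc43a1 rose by 2.38 ± 0.34 (adjusted p = 5.87e-05), 2.10 ± 0.30 (adjusted p = 6.82e-05) and 1.52 ± 0.47 (adjusted p = 0.0159), the last of them not without LSK-labelled array 3 (1.47, adjusted p = 0.0518), and Slc7a11, the cystine transporter, fell by 1.69 ± 0.19 (adjusted p = 9.27e-06) from values near background. Within the Myc network itself, 4 of 10 genes rose (40%) and 2 fell (20%), against 28.3% and 19.1% over all genes. That count turned on single LSK-labelled arrays: it was 4 higher and 4 lower without array 1, 1 higher and 2 lower without array 2, and 0 higher and 1 lower against array 1 alone. Mxd1, which opposes Myc at its sites, read 8.57, 8.02, 8.30, 9.17 and 6.41 in DN2-labelled arrays, against 10.84, 10.51 and 11.09 in LSK-labelled arrays. Mxd1 and its relative Mxi1 fell, with differences of −2.72 ± 0.61 (adjusted p = 0.00209) and −1.52 ± 0.21 (adjusted p = 3.85e-05), and LSK-labelled array 1 was at the level of arrays 2 and 3 in both. A link of either gene to the Mycn level was not tested. Mxd4 and Mga, other partners of Max, rose by 1.21 ± 0.33 (adjusted p = 0.00694) and 0.94 ± 0.27 (adjusted p = 0.00941), and Mlxip, a glucose-responsive relative, by 0.77 ± 0.26 (adjusted p = 0.0259). Against LSK-labelled array 1 alone the differences of Mxd4, Mga and Mlxip were 0.20, 0.61 and 0.62. Mxd4 did not pass without LSK-labelled array 2 (0.73, adjusted p = 0.0518) or with its probe set of highest SD (0.29, adjusted p = 0.584), Mga did not pass with its probe set of highest SD (0.77, adjusted p = 0.138), and Mlxip did not pass without LSK-labelled array 2 or 3, DN2-labelled array 4 or 5, or with each array centred on its median (adjusted p from 0.0504 to 0.0894).

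**Figure D4:**
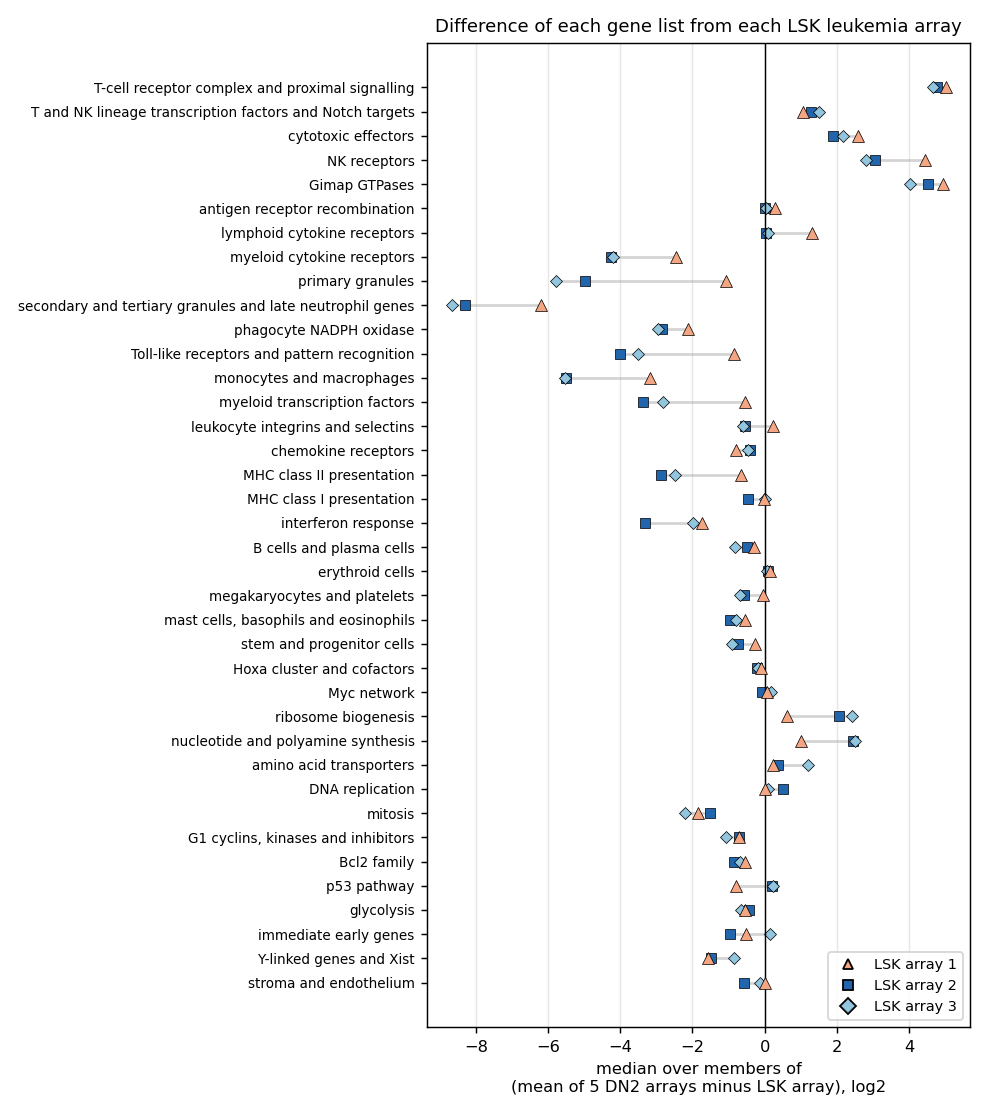
Median over the tested members of each gene list of the difference between the mean of the 5 DN2-labelled arrays and LSK-labelled array 1 (triangles), array 2 (squares) and array 3 (diamonds), in log2 units. The 3 symbols lie together for the T-cell receptor list, and array 1 lies nearer to 0 than arrays 2 and 3 for primary granules, pattern receptors, MHC class II, ribosome biogenesis and nucleotide synthesis.

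Mitotic genes were called lower in the DN2-labelled arrays, but these varied widely. Of 23 tested, 20 fell and 0 rose, the median was −1.93, and 2 did not overlap between the groups. Aurka, the Aurora A kinase of the spindle poles, read 6.49, 5.56, 7.77, 6.13 and 5.51 in DN2-labelled arrays, against 8.88, 8.10 and 8.47 in LSK-labelled arrays. Ccnb2, cyclin B2, read 7.83, 5.62, 9.29, 7.58 and 4.60 in DN2-labelled arrays, against 8.99, 9.32 and 9.97 in LSK-labelled arrays. Array 3 was the highest of the DN2-labelled arrays and arrays 2 and 5 the lowest, and array 3 reached the LSK range in Ccnb2 but not in Aurka (−2.19 ± 0.43 (adjusted p = 0.000834) and −2.45 ± 0.80 (adjusted p = 0.0206)). Ccnb2 did not pass without LSK-labelled array 2 (−2.50, adjusted p = 0.0502) or 3 (−2.17, adjusted p = 0.0809). Ube2c, an enzyme of the anaphase-promoting complex, Tpx2, a spindle assembly factor, and Cenpf, a kinetochore protein, fell, with differences of −2.52 ± 0.69 (adjusted p = 0.00774), −2.28 ± 0.57 (adjusted p = 0.00432) and −2.26 ± 0.65 (adjusted p = 0.0103), all with overlap. The list mean was 8.60 in DN2-labelled array 3, 7.06 and 7.02 in arrays 1 and 4 and 5.72 and 5.33 in arrays 2 and 5, against 8.51, 8.17 and 8.90 in LSK-labelled arrays 1, 2 and 3. The list gave 13 lower calls without LSK-labelled array 1, 6 without LSK-labelled array 3, 13 without DN2-labelled array 2, 1 with LSK-labelled array 1 alone and 5 in a fit of the 8 compared arrays alone. Genes of DNA replication were less uniform, with 4 of 23 higher (17.4%) and 2 lower (8.7%), both under the shares over all genes (28.3% and 19.1%). Rrm2, a subunit of ribonucleotide reductase, and Cdc45, a part of the replicative helicase, fell, with differences of −2.36 ± 0.64 (adjusted p = 0.00729) and −1.77 ± 0.48 (adjusted p = 0.00761). Mcm6 and Mcm2, subunits of that helicase, and Cdt1, which helps to load it, rose by 1.46 ± 0.30 (adjusted p = 0.0012), 1.0 ± 0.32 (adjusted p = 0.0182) and 0.92 ± 0.25 (adjusted p = 0.00718). Mcm2 did not pass without LSK-labelled array 2 (0.87, adjusted p = 0.0776) or 3 (0.95, adjusted p = 0.0603), or with its probe set of highest SD (0.88, adjusted p = 0.0799).

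Regulators of the G1 phase were called higher in 3 (16.7%) and lower in 7 (38.9%) of 18 tested members, against 28.3% and 19.1% over all genes. Ccnd2, cyclin D2, read 10.89, 10.71, 11.28, 10.98 and 10.21 in DN2-labelled arrays, against 7.29, 8.53 and 7.33 in LSK-labelled arrays. Ccnd3, cyclin D3, read 8.83, 8.27, 8.90, 8.99 and 8.91 in DN2-labelled arrays, against 9.91, 10.48 and 10.75 in LSK-labelled arrays. The 2 D-type cyclins thus went in opposite directions without overlap (3.09 ± 0.91 (adjusted p = 0.0119) and −1.60 ± 0.38 (adjusted p = 0.00296)), with LSK-labelled array 1 on the side of arrays 2 and 3, although another Ccnd3 probe set differed by 1.68. E2f2, a cell cycle transcription factor, and Cdk2 fell, with differences of −2.84 ± 0.55 (adjusted p = 0.000693) and −1.88 ± 0.36 (adjusted p = 0.000642). Cdkn1a (p21), a p53 target that stops the cycle, read 7.77, 5.71, 7.02, 5.38 and 7.51 in DN2-labelled arrays, against 12.07, 9.55 and 7.81 in LSK-labelled arrays. LSK-labelled array 1 was the highest and array 3 almost level with the DN2-labelled arrays, and the gene fell by 3.13 ± 0.76 (adjusted p = 0.00356), with a difference of −2.0, adjusted p = 0.0188 without array 1. Among 16 tested genes of the p53 pathway 4 rose (25%) and 3 fell (18.75%), close to the shares over all genes (28.3% and 19.1%). The list mean was between 7.29 and 7.80 in the DN2-labelled arrays, against 8.81, 7.21 and 6.99 in LSK-labelled arrays 1, 2 and 3. Median differences were −0.79 from LSK-labelled array 1, 0.20 from array 2 and 0.24 from array 3. Sesn1, Zmat3 and Aen, targets of p53, rose by 2.39 ± 0.26 (adjusted p = 5.80e-06), 2.10 ± 0.51 (adjusted p = 0.00366) and 1.55 ± 0.22 (adjusted p = 5.49e-05), and Fas, the death receptor, fell by 1.45 ± 0.34 (adjusted p = 0.00287). Against LSK-labelled array 1 alone, Zmat3 differed by 0.33 and Fas by −0.78.

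In the Bcl2 family 1 of 16 tested genes rose (6.25%) and 7 fell (43.75%), against 28.3% and 19.1% over all genes. Bcl2l11 (BIM), a protein that promotes cell death and is bound by Bcl2, read 12.45, 12.24, 12.26, 12.38 and 11.70 in DN2-labelled arrays, against 8.47, 8.68 and 9.11 in LSK-labelled arrays. It rose without overlap (3.45 ± 0.39 (adjusted p = 7.70e-06)), and LSK-labelled array 1 was at the level of arrays 2 and 3. A link to the Bcl2 level was not tested. Bcl2l2 (BCL-W), which protects cells, Bak1, a pore former of mitochondria, and Bnip3, a protein of mitochondrial turnover, fell, with differences of −1.95 ± 0.27 (adjusted p = 4.45e-05), −1.43 ± 0.17 (adjusted p = 1.11e-05) and −1.49 ± 0.17 (adjusted p = 9.82e-06). Bcl2a1a, a protective gene with near-identical copies among which the probe sets may not separate, fell by 1.61 ± 0.60 (adjusted p = 0.0393) and did not pass without LSK-labelled array 2 or DN2-labelled array 2, 3 or 4 (adjusted p from 0.052 to 0.238). Of 18 genes of glycolysis 9 fell (50%) and 3 rose (16.7%), against 19.1% and 28.3% over all genes. Slc2a3 (GLUT3), Hk2, hexokinase 2, and Slc16a3, an exporter of lactate that was near background in the DN2-labelled arrays, fell, with differences of −2.59 ± 0.28 (adjusted p = 4.27e-06), −2.36 ± 0.27 (adjusted p = 9.27e-06) and −2.01 ± 0.23 (adjusted p = 1.04e-05). Slc16a1 (MCT1), another lactate carrier, read 9.88, 10.46, 10.04, 10.04 and 10.78 in DN2-labelled arrays, against 8.26, 5.94 and 5.94 in LSK-labelled arrays, and it rose by 3.53 ± 0.53 (adjusted p = 8.82e-05) without overlap. Immediate early genes, which respond to handling of cells, gave 1 higher (Egr2) and 1 lower call (Ier3, −3.62 ± 0.61 (adjusted p = 0.000238)) among 16. These are 6.25% each, under the shares over all genes.

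The genes at which LSK-labelled array 1 lay farthest from arrays 2 and 3, where these were within a log2 unit of each other, are given as a description with no test. Besides Mycn, the largest gaps upward were in Epx, eosinophil peroxidase, which read 11.68 in LSK-labelled array 1 against 3.76 and 3.28 in arrays 2 and 3, and Prg3, a further eosinophil granule protein, which read 10.46 against 3.53 and 3.14. Gata1, a factor of erythroid cells, megakaryocytes and eosinophils, was at 9.13 in that array against 3.48 and 3.31, and Itga2b, the platelet integrin CD41, at 8.67 against 4.40 and 4.92. Retnla, a protein of alternatively activated macrophages, Serpinb2, a plasminogen activator inhibitor, and Serpina11, a serpin, had values of 11.93, 10.41 and 10.77 in array 1. In the DN2-labelled arrays Epx, Prg3, Gata1, Retnla, Serpinb2 and Serpina11 were at background. Cdkn2a, the locus of the tumour suppressors p16 and p19Arf, read 6.91, 3.77, 5.89, 4.85 and 6.32 in DN2-labelled arrays, against 10.34, 3.70 and 3.75 in LSK-labelled arrays. Perp, a p53 target of cell junctions, read 5.65, 4.86, 4.69, 5.95 and 7.19 in DN2-labelled arrays, against 10.96, 3.73 and 4.23 in LSK-labelled arrays. In these 2 genes LSK-labelled array 1 was above all other arrays and arrays 2 and 3 were below the DN2 range, and neither passed the test (−0.38 ± 1.37 (adjusted p = 0.841) and −0.64 ± 1.18 (adjusted p = 0.688)). Without array 1 the differences turned positive, at 1.82, adjusted p = 0.18 for Cdkn2a and 1.69, adjusted p = 0.0161 for Perp, and that of Cdkn2a also did without DN2-labelled array 2 (0.06, adjusted p = 0.979).

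The largest gaps downward were in 8 genes. Clec5a, an activating receptor of myeloid cells, read 3.16, 3.09, 3.41, 3.08 and 3.14 in DN2-labelled arrays, against 4.83, 9.26 and 10.11 in LSK-labelled arrays. Gpr84, a receptor for fatty acids on neutrophils and macrophages, read 3.70, 3.40, 4.18, 3.97 and 4.06 in DN2-labelled arrays, against 4.50, 9.10 and 9.09 in LSK-labelled arrays. Slamf8, a macrophage receptor, read 4.04, 2.94, 3.17, 3.04 and 3.29 in DN2-labelled arrays, against 3.54, 8.83 and 8.54 in LSK-labelled arrays. LSK-labelled array 1 was inside the DN2 range for Slamf8 and a little above it for Gpr84, and for all 3 it was far below arrays 2 and 3 (−4.89 ± 0.83 (adjusted p = 0.000257), −3.70 ± 0.76 (adjusted p = 0.00115) and −3.67 ± 0.83 (adjusted p = 0.00224)). Il1f9 (IL-36 gamma), a cytokine, Prom1 (CD133), a progenitor antigen, Tnfsf13 (APRIL), a B-cell survival factor, and Klra17, a Ly49 family receptor of myeloid cells, were at 5.56, 5.14, 4.85 and 4.11 in LSK-labelled array 1 and at 10.33, 9.51, 9.36 and 8.41 in array 2. Prr5l, a protein of the mTOR complexes, read 3.54 in LSK-labelled array 1, with 8.00 and 8.01 in arrays 2 and 3.

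**Figure D5:**
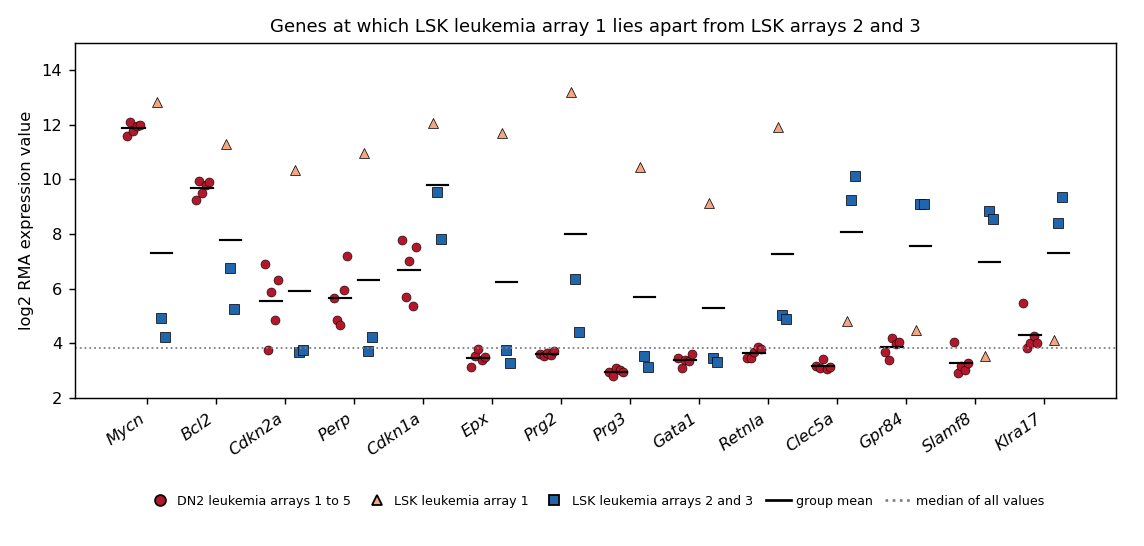
Log2 expression values of genes at which LSK-labelled array 1 (triangle) lies apart from LSK-labelled arrays 2 and 3 (squares), beside the 5 DN2-labelled arrays (circles), with group means as bars and the median of all values as a dotted line. Array 1 is the highest array for Mycn, Bcl2, Cdkn2a, Perp and the eosinophil genes, and lies far below LSK-labelled arrays 2 and 3 for Clec5a, Gpr84, Slamf8 and Klra17.

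Sex-linked genes differed between arrays within the groups. Xist, the RNA of the inactive X chromosome, read 12.42, 6.34, 12.24, 12.54 and 12.27 in DN2-labelled arrays, against 5.10, 4.53 and 10.92 in LSK-labelled arrays. Eif2s3y, a Y-linked gene, read 2.84, 10.05, 2.72, 2.92 and 2.87 in DN2-labelled arrays, against 9.90, 9.60 and 8.93 in LSK-labelled arrays. DN2-labelled array 2 had the Y-linked gene and low Xist, the other DN2-labelled arrays the reverse, LSK-labelled arrays 1 and 2 had the Y-linked gene, and LSK-labelled array 3 had both. Donor and recipient cells cannot be told apart in these values. The Y-linked gene was called (−5.20 ± 1.75 (adjusted p = 0.0238)), though not without LSK-labelled array 1 (−4.99, adjusted p = 0.0611) or 2 (−5.14, adjusted p = 0.0643). Xist was not called (4.31 ± 1.71 (adjusted p = 0.0501)) and was without LSK-labelled array 3 (6.35, adjusted p = 0.00917) or DN2-labelled array 2 (5.52, adjusted p = 0.00837). With the mean of 3 Y-linked genes as a covariate, 5122 genes were called.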

How the data were processed

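The deposited table holds log2 expression values per probe set of an Affymetrix mouse array, made by the authors with RMA and affy per the submitters' processing notes. The sources used here do not give versions, parameters, the array's build or whether the arrays were normalized as 1 set. Biotin labelling started from 300 ng of total RNA, per the labels. The table has no detection calls, and the number of arrays limits the precision.

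Of 45141 probe sets, 104 controls were left out. The platform annotation gave 1 gene symbol to 28898 probe sets and several to 551, which were not named, and 28689 matched the RefSeq gene table of GRCm38.p6, used for names. Each of 17097 genes was represented by its probe set of highest mean, of which 11629 had a group mean above the median of all values, 3.83, and were tested. Differences come from limma 3.58.1 (lmFit and eBayes, R 4.3.3) on the deposited values, with 5 group means over 17 arrays and 12 residual degrees of freedom, two-sided, with Benjamini-Hochberg adjustment over all genes tested. Differences are given ± SE with n = 5 and 3. No batch is given in the labels. The procedure was tested on simulated data.

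The 39 gene lists and the compared arrays were chosen with earlier results of these data known, so list counts are descriptions beside the shares over all genes and no list was tested. Of 661 listed genes 551 were tested, and some are on more than 1 list. Named genes are those of the sort and oncogenes, the 12 largest rises and 12 largest falls without overlap, the members of each list that differed most (up to 5), and the 8 genes in each direction where LSK-labelled array 1 lay farthest from arrays 2 and 3. Symbols that start with Gm and a number or end in Rik were left out of the largest rises, the largest falls and these 8 genes in each direction. List members named because their count was 5 or fewer (Lcp2, Hes1, Zbtb7b, Il6st, Myb, Gfi1, H2-Ob and Mlxip) were chosen after their values were seen. Array 1 was called at a like level when it lay within 1 log2 unit of the nearer of arrays 2 and 3 or between them.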

Additional observations from a re-analysis of the deposited data

Results flagged for a closer look

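In each group of 5 DN2-labelled arrays, the highest or lowest array was set against the others by Dixon's criterion, which chance meets in about 1 in 20 groups. It was met by 20 of 202 genes named and by 5 of 39 list means, and over all genes tested by 972 (8.36%), of which array 5 was the far array in 515 and array 1 in 200.

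DN2-labelled array 1 was the far array for 11 of the genes named, all of them higher there than in arrays 2 to 5. Adgre1 was at 7.60 in array 1, with the others between 3.02 and 3.80. Ccl6 was at 8.71, Clec4e at 5.27, Clec7a at 9.60, Csf2rb at 6.90 and Tlr2 at 5.91, where the highest of the others was 4.73. H2-DMb2 was at 6.45, Ifitm6 at 7.90, Mgst1 at 7.48, Lmo2 at 6.64 and Klra17 at 5.47, with others up to 4.27. The list means of myeloid cytokine receptors (6.02 against 5.18 to 5.41), megakaryocytes and platelets (4.30 against 3.71 to 3.86) and stem and progenitor cells (5.03 against 4.65 to 4.68) were also highest in array 1. A role of other myeloid cells in that array was not tested.

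In DN2-labelled array 2, Eif2s3y was at 10.05, with the others between 2.72 and 2.92, Xist was at 6.34, with the others between 12.24 and 12.54, and the mean of the sex-linked list was 7.68, with the others between 5.36 and 5.53. Gzmk was at 10.97 there and at least 11.94 in the others, and Ccnd3 was at 8.27 and at least 8.83.

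In DN2-labelled array 5, the Gimap list mean was 9.11, with the others between 10.06 and 10.21, and Gimap8 was at 8.86, Klrb1c at 9.86 and Bcl2l11 at 11.70, each the lowest of its group. Ccr1 was at 3.37 in array 5 and Clec5a at 3.41 in array 3, both at background.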

How the results depend on the processing

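The number of genes called stayed within 1.5 times of 5515 (3296 higher, 2219 lower) under 8 or 13 leukemia arrays, other filters, other rules for probe sets, quantile normalization, median centring, array weights and a Y-linked covariate, from 4807 to 6800. Median centring made 51.8% of calls higher, against 59.8%. Leaving out 1 array gave 4577 to 5615 calls (2795 to 3383 higher, 1764 to 2468 lower). LSK-labelled array 1 alone gave 3172 (1986 higher, 1186 lower), a fit with fewer samples, and without DN2-labelled arrays 1 and 3 it was 5090. An alternative chosen after seeing the data, without these and LSK-labelled array 1, gave 5501. A test against a fold of 2 (limma treat) called 1324 (651 higher, 673 lower), and 3490 of the calls (1924 higher) had a fold of at least 2.

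Same-numbered arrays of the groups correlated in their deviations at −0.30, −0.18 and 0.15. With so few same-numbered arrays these values cannot decide whether the numbers pair the arrays. A replicate block over the 8 arrays, which uses 6 of them in pairs, called 1646 (1048 higher, 598 lower).

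Of 190 named genes called, 88 did not pass with the block and 64 did not pass against a fold of 2. On the 8 compared arrays alone, without the spread of the other groups, 17 did not pass (Mycn, Bcl2a1a, Ccnb2, Cd8a, Cenpf, H2-Aa, H2-Eb1, Ifit3, Ighm, Il21r, Il6st, Klra17, Prg2, Retnla, Serpinb2, Slc43a1 and Tnfsf13, adjusted p from 0.0529 to 0.153), and on the 13 leukemia arrays 4 (Bcl2a1a, Ifit3, Klra17 and Serpinb2). Directions turned in few named genes, and the cause was not tested unless the other probe set shows it. With the mean of all probe sets Bcl2 was −0.056 and Ccnd3 0.040, and with the probe set of highest SD they were −2.02 and 1.68. Ptprc was −0.035 under quantile normalization, −0.033 under median centring, −0.085 under array weights, −0.090 with the covariate, −0.19 in the added alternative and −0.13 to 0.19 with 1 array left out. Cdkn2a was 1.22 and Perp 1.29 under array weights and 1.25 and 2.01 in the added alternative, and with 1 array left out they ran from −1.50 to 1.82 and from −1.93 to 1.69, highest without LSK-labelled array 1. Against LSK-labelled array 1 alone Bcl2 was −1.62, Mycn −0.95, Klra17 0.20 and Prr5l 1.54. Signals near the median of all values, 3.83, limit what low genes can show.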
